A study of Mus musculus with 4 samples.

Results

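The mitosis and spindle genes are 32 genes whose products drive entry into mitosis, build the spindle, hold or release the chromosomes and split the cell. They were taken by name: every non-control probe whose gene name on the array is one of the 32 was a member probe, which gave 43 of the 41000 probes and 32 of 30729 gene names. All 32 genes passed the filter on dim probes, and each was well above background in both channels on all 4 arrays, with no saturated spot.

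RNA came from H460, an established human lung carcinoma line, grown in RPMI1640 medium with 10% heat-inactivated serum. One group was treated for 4 h with 250 µM farnesol, an alcohol that cells can form from the mevalonate pathway's farnesyl pyrophosphate, and the other with the vehicle DMSO for the same time. The duplicate experiments gave 2 farnesol RNAs, each hybridised against its matched vehicle RNA on 2 arrays with the dyes exchanged, so that the 4 arrays hold 2 replicates. The labels name the organism as mouse, whereas the protocols in them name this human line, and the names on the probes are those of human genes. The series title links farnesol to cell death and the endoplasmic reticulum stress response, and the comparison asks how the RNA of the treated cells differs from that of the vehicle cells.

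In a dividing cell, B-type cyclins bind the kinase CDK1 and start mitosis, after the CDC25 phosphatases have removed the inhibitory phosphates from CDK1. The spindle checkpoint holds the anaphase promoting complex inactive until every kinetochore is attached to microtubules, and the complex then marks securin and the cyclins for destruction so that separase can cut cohesin. Transcripts of many of these proteins are known to accumulate in G2 and mitosis and to be low in G1, so in a culture of mixed cells their level depends on how many cells are in those phases. In such bulk RNA, fewer cells in a phase and less RNA per cell cannot be told apart.

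Arrays of the same RNA pair with exchanged dyes correlated at r = 0.943 in replicate 1 and 0.942 in replicate 2 over all features tested, against 0.634 to 0.685 for arrays of different replicates. Between 82.7% and 93.0% of the spots of a channel were well above background. The epithelial markers KRT8, KRT18, KRT19, TACSTD1 and CDH1 were well above background on all 4 arrays, with mean log2 ratios between -0.65 and -0.20. Probes for the leukocyte, fibroblast and endothelial markers PTPRC, CD3E, CD68, COL1A1, COL1A2 and CDH5 were also well above background on all 4 arrays, so this flag did not separate the cell types. The endothelial marker PECAM1 was so on 4 arrays in vehicle and 3 in farnesol. Median vehicle signals of the brightest probe ran from 1133 (CDH1) to 198835 (KRT18) for the epithelial markers. For the others they ran from 141 (PECAM1) to 3858 (CD3E). The number of replicates, 2, limits every value given here, and nothing in the labels says how far the duplicate experiments were separate cultures, so a p-value measures only the spread between these samples.

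Each value is the log2 of farnesol over vehicle, so that a negative value means less RNA in the farnesol cells. Errors are the SD of the 2 replicates. Where 4 values are listed, they are those of replicate 1 with farnesol in Cy5, replicate 1 with farnesol in Cy3, replicate 2 with farnesol in Cy5 and replicate 2 with farnesol in Cy3, in this order.

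The mitosis genes were lower in the farnesol cells as a group. Their list was chosen with earlier results of these data known, so its counts are a description and no test. Of the 32 genes, 29 were below 0 in both replicates, where 30.2% of all 28300 features tested were. On all 4 arrays 28 were below 0, against 21.9% of features, and none was above 0 in both replicates, against 35.4%. The members' median was -0.38, which is 1.31-fold lower (replicate medians -0.32 and -0.38), and the median of all features was 0.014. All 32 means lay below that median, and 19 lay in the lowest decile of all features.

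The differences were mostly small. Each count by size of difference, here and below, also required all arrays used to lie on the counted side of 0. At or below -0.32 on the log2 scale in both replicates were 14 of the 32, against 5.11% of features, and none was as far above 0, against 2.21%. At least 1.5-fold lower in both were 5, against 1.44%: CCNB2, CCNB1, CENPA, TOP2A and BIRC5. None was at least 2-fold lower in both replicates, against 0.24% of features. By limma with Benjamini-Hochberg adjustment over all features, 0 of the 32 passed an adjusted p of 0.05 (0% of features passed as lower and 0.0106% as higher), and the members' adjusted p ran from 0.191 to 0.993. At an unadjusted p under 0.05, 21 members were lower, against 10.8% of features, and 0 higher, against 3.71%. With median centring in place of loess, 24 members were lower at an unadjusted p under 0.05, against 15.3% of features. None was higher, against 2.69%. At least 1.5-fold lower in both replicates were then 10 members, against 2.51% of features. When the 4 arrays were fitted with the replicate as a random block, 17 members passed an adjusted p of 0.05, all of them lower, where 7.59% of all features passed as lower and 2.54% as higher. That fit counts the dye-swapped arrays, which are technical repeats, with a correlation shared by all features, and adds no replicate. PLK1, with replicate values of -1.44 and -0.56, passed in it (limma, Benjamini-Hochberg adjusted p = 0.031). The members are a list whose genes share the cell cycle, so they are not independent of each other.

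**Figure D1:**
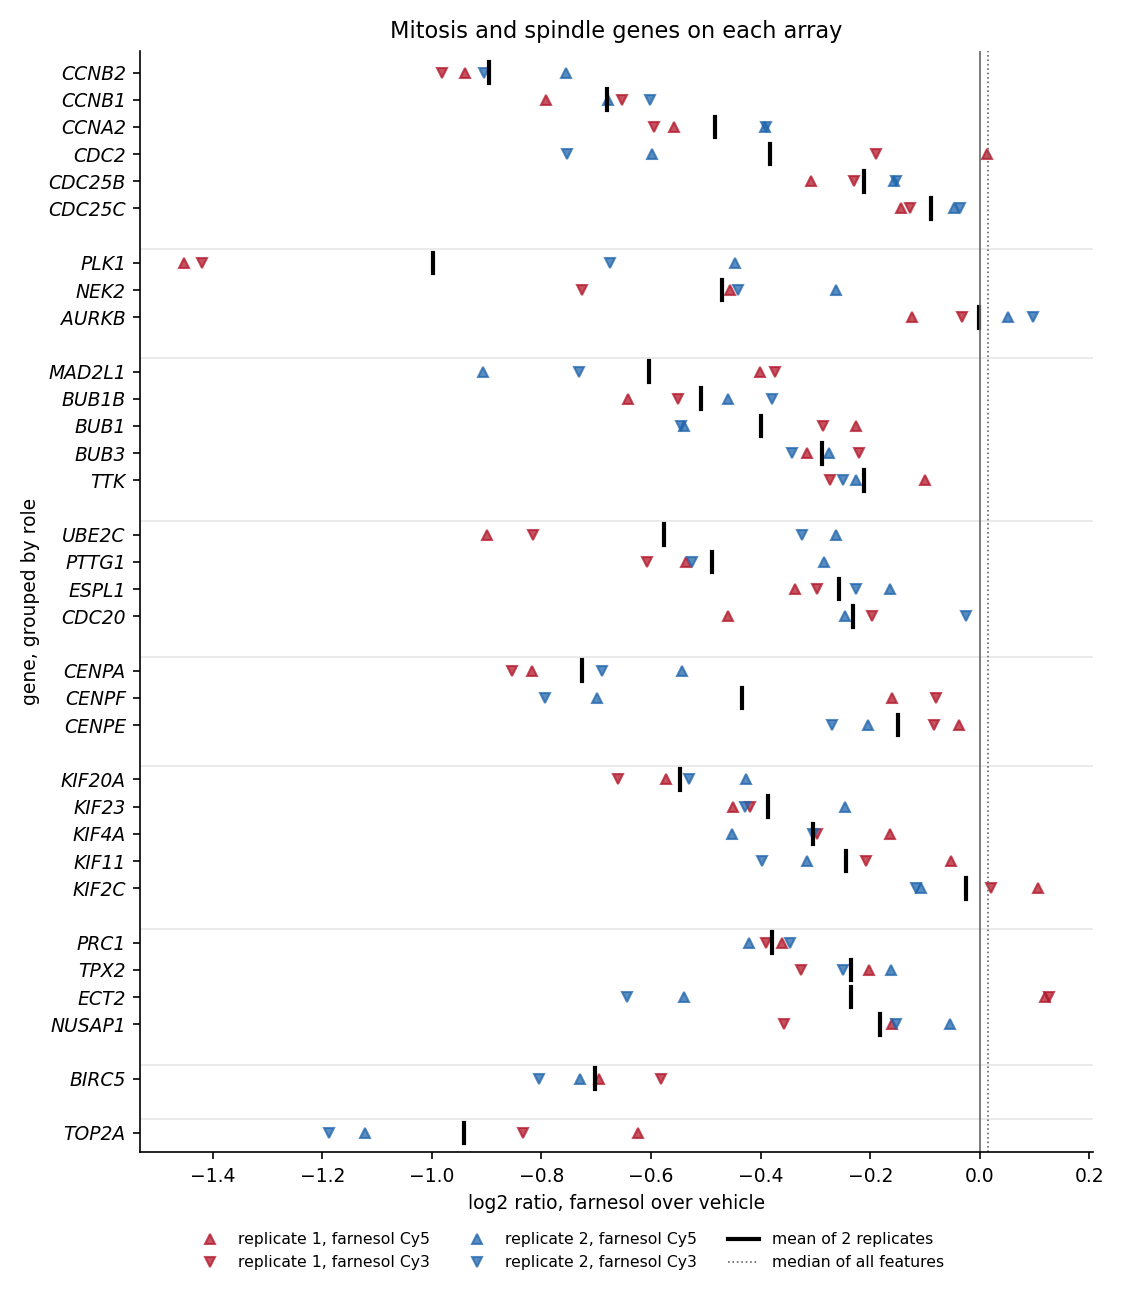
Log2 ratio of farnesol over vehicle (x axis) of each of the 32 mitosis and spindle genes (y axis, grouped by role) on each of the 4 arrays. Red triangles are replicate 1, blue triangles replicate 2, upward with farnesol in Cy5 and downward with farnesol in Cy3; the black bar is the mean of the 2 replicates and the dotted line the median of all features, 0.014. For 28 genes every point lies left of 0, and for PLK1, CENPF and ECT2 the replicates stand apart while the dye-swapped arrays of each replicate lie together.

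Cyclins, their kinase and its phosphatases were all below 0 in both replicates (6 of 6, against 30.2% of all features), with a median of -0.43. CCNB2, a B-type cyclin that activates CDK1 at the entry into mitosis, measured -0.94, -0.98, -0.76 and -0.90. Its processed signal went from 19948 in vehicle to 10516 in farnesol on the first array and from 12416 to 6634 on the fourth. The replicates lay close together, and the mean of -0.90 ± 0.09 (SD, n = 2), 1.86-fold lower, was larger than the replicate spread (limma, Benjamini-Hochberg adjusted p = 0.191). CCNB1, the main mitotic cyclin partner of CDK1, measured -0.79, -0.65, -0.68 and -0.60. It was low on every array, with a mean of -0.68 ± 0.06 (SD, n = 2), 1.60-fold lower (limma, Benjamini-Hochberg adjusted p = 0.191). CCNA2, cyclin A, which acts from S phase into early mitosis, measured -0.56, -0.59, -0.39 and -0.39. Its arrays of replicate 1 were lower than those of replicate 2 without overlap, and its mean was -0.48 ± 0.13 (SD, n = 2).

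CDC2, the older name of CDK1, the kinase that these cyclins activate, differed between the replicates. It measured -0.09 in replicate 1, where the arrays gave 0.012 and -0.19, and -0.68 in replicate 2. Its mean of -0.38 ± 0.42 (SD, n = 2) was smaller than its spread. The phosphatases were nearer 0: CDC25B had a mean of -0.21 ± 0.08 (SD, n = 2), and CDC25C had -0.089 ± 0.066 (SD, n = 2). Within this group the lowest means were those of the 3 cyclins.

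CCNB2 had a second, dimmer probe that went the other way. It measured 0.093, 0.21, 0.24 and 0.20, above 0 on every array, with a mean of 0.18 ± 0.05 (SD, n = 2). The array files annotate it to a cDNA clone record, whereas the brighter probe is annotated to a reference mRNA record. With the mean of the probes in place of the brightest, CCNB2 was at -0.36.

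Among the mitotic kinases PLK1 was the lowest and AURKB lay near 0. PLK1, a polo-like kinase that acts at centrosomes, kinetochores and the midzone, measured -1.45, -1.42, -0.45 and -0.67. Its processed signal went from 23667 in vehicle to 8616 in farnesol on the first array, and from 17846 to 11425 on the fourth. Replicate 1 was thus further below 0 than replicate 2 on both of its arrays. Its mean was -0.998 ± 0.62 (SD, n = 2), the lowest of the 32 and at rank 119 from the lowest of all features (limma, Benjamini-Hochberg adjusted p = 0.307). The dimmer of its probes gave -0.59, -0.46, -0.079 and -0.11, a mean of -0.31, also below 0 on every array and also lower in replicate 1. NEK2, a kinase of centrosome separation, had a mean of -0.47 ± 0.17 (SD, n = 2), and its other probe had -0.36.

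AURKB, the kinase of the chromosomal passenger complex, measured -0.12, -0.032, 0.051 and 0.097. Its replicates lay on both sides of 0, and its mean was -0.0019 with a 95% interval of -0.24 to 0.23 from limma. BIRC5, survivin, the subunit that brings this complex to the centromere, measured -0.70, -0.58, -0.73 and -0.81. It was low on all arrays, with a mean of -0.70 ± 0.09 (SD, n = 2), 1.63-fold lower (limma, Benjamini-Hochberg adjusted p = 0.191). The other BIRC5 probe gave -0.42, -0.38, -0.039 and 0.0005, so that it was low in replicate 1 and near 0 in replicate 2. By the brighter BIRC5 probe, the passenger kinase and its survivin subunit had different values on these arrays, though the difference between them was not tested. In replicate 2 the other BIRC5 probe, at -0.019, lay near 0, as did AURKB, at 0.074.

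All 5 genes of the spindle checkpoint were below 0 on all 4 arrays, against 21.9% of all features, with a median of -0.40. MAD2L1, the MAD2 protein that binds and inhibits CDC20, measured -0.40, -0.37, -0.91 and -0.73. Both arrays of replicate 2 were lower than both of replicate 1, and the mean was -0.60 ± 0.31 (SD, n = 2; limma, Benjamini-Hochberg adjusted p = 0.274). BUB1B, the BUBR1 subunit of the same inhibitory complex, measured -0.64, -0.55, -0.46 and -0.38. Here replicate 1 was the lower, and the mean was -0.51 ± 0.12 (SD, n = 2). BUB1, a kinetochore kinase, had a mean of -0.40 ± 0.20 (SD, n = 2), and TTK, the MPS1 kinase that starts the checkpoint signal, had -0.21 ± 0.04 (SD, n = 2). BUB3, which docks BUB1 and BUB1B at the kinetochore, had 3 probes with means of -0.29, -0.21 and -0.48.

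The 4 genes of anaphase were likewise below 0 on all arrays, against 21.9% of all features, with a median of -0.37. UBE2C, a ubiquitin-conjugating enzyme of the anaphase promoting complex, measured -0.90, -0.82, -0.26 and -0.33. It was low mainly in replicate 1, and its mean was -0.58 ± 0.40 (SD, n = 2; limma, Benjamini-Hochberg adjusted p = 0.350). PTTG1, securin, the inhibitor of separase, measured -0.54, -0.61, -0.28 and -0.52. Replicate 1 was the lower by a small margin, and the mean was -0.49 ± 0.12 (SD, n = 2).

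CDC20, the activator of the complex that MAD2 holds back, had a mean of -0.23 ± 0.14 (SD, n = 2). ESPL1, separase, the protease that cuts cohesin, measured -0.34, -0.30, -0.16 and -0.23, a mean of -0.26 ± 0.09 (SD, n = 2). A dimmer ESPL1 probe lay around 0, with -0.060, -0.093, 0.053 and 0.11. The only PTTG1 probe and the brighter ESPL1 probe were thus both below 0 on all arrays.

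CENPA was the lowest of the centromere genes. CENPA, the histone variant that marks the centromere, measured -0.82, -0.85, -0.54 and -0.69. It was low on every array, with a mean of -0.73 ± 0.16 (SD, n = 2), 1.65-fold lower (limma, Benjamini-Hochberg adjusted p = 0.193). From the scanner software's processed signals its mean was -1.11. CENPF, a large kinetochore protein of late cell cycle, had -0.12 in replicate 1 and -0.75 in replicate 2, a mean of -0.43 ± 0.44 (SD, n = 2), and its other probe had -0.23. CENPE, the kinetochore motor that moves chromosomes to the spindle equator, had -0.15 ± 0.12 (SD, n = 2).

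The kinesins, motors of the spindle, had means from -0.55 to -0.025, with a median of -0.31. KIF20A, a motor of the midzone that is needed for cytokinesis, measured -0.57, -0.66, -0.43 and -0.53. All arrays were low, and its mean was -0.55 ± 0.10 (SD, n = 2), 1.46-fold lower (limma, Benjamini-Hochberg adjusted p = 0.197). KIF23, a subunit of centralspindlin, had -0.39 ± 0.07 (SD, n = 2), and KIF4A, a chromokinesin, had -0.31 ± 0.10 (SD, n = 2). KIF11, the motor that pushes the spindle poles apart, had -0.24 ± 0.16 (SD, n = 2) by its brighter probe and -0.53 by the other. KIF2C, a kinesin that depolymerises microtubules at centromeres, measured 0.11, 0.020, -0.11 and -0.12. Its replicates differed in sign, with a mean of -0.025 and a 95% interval of -0.27 to 0.22 from limma.

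The spindle and midzone proteins were modestly lower, with a median of -0.23. PRC1, which bundles the microtubules of the midzone, had the closest replicates of all members, with -0.376 and -0.384, a mean of -0.38 ± 0.0055 (SD, n = 2). TPX2, an activator of Aurora A on spindle microtubules, had -0.24 ± 0.04 (SD, n = 2), and NUSAP1, a microtubule-binding protein of the spindle, had -0.18 ± 0.11 (SD, n = 2). ECT2, the exchange factor that activates RhoA for cytokinesis, measured 0.12, 0.13, -0.54 and -0.64. It was above 0 on both arrays of replicate 1 and below 0 on both of replicate 2, so that its mean of -0.23 ± 0.51 (SD, n = 2) was smaller than the spread. Its signal went from 10950 to 12307 on the first array and from 7974 to 5092 on the fourth, and its other tested probe had a mean of -0.06.

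TOP2A, the topoisomerase that untangles sister chromatids, measured -0.62, -0.83, -1.12 and -1.19. Its signal went from 5903 in vehicle to 3715 in farnesol on the first array and from 3484 to 1264 on the fourth. Every array was low and replicate 2 was the lower, with a mean of -0.94 ± 0.30 (SD, n = 2), 1.92-fold lower (limma, Benjamini-Hochberg adjusted p = 0.207).

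The median replicate spread of these genes was larger than that of all features, but smaller than that of the other mitosis genes described below. The median SD of the members was 0.12, against 0.078 over all features and 0.17 over 76 other genes of mitosis. Of the 32, 18 had the lower value in replicate 1 and 14 in replicate 2, near the share of all features, of which 14479 of 28300 had the lower value in replicate 1. The replicates of 7 members differed by over 0.4: PLK1 and UBE2C were lower in replicate 1, and TOP2A, MAD2L1, CENPF, CDC2 and ECT2 in replicate 2. Across the 32 genes, which are not independent, the replicates' values correlated at r = 0.43 (Spearman's rho 0.45), as a description. The dye-swapped arrays of a replicate lay at most 0.14 from their mean, the value of NEK2.

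**Figure D2:**
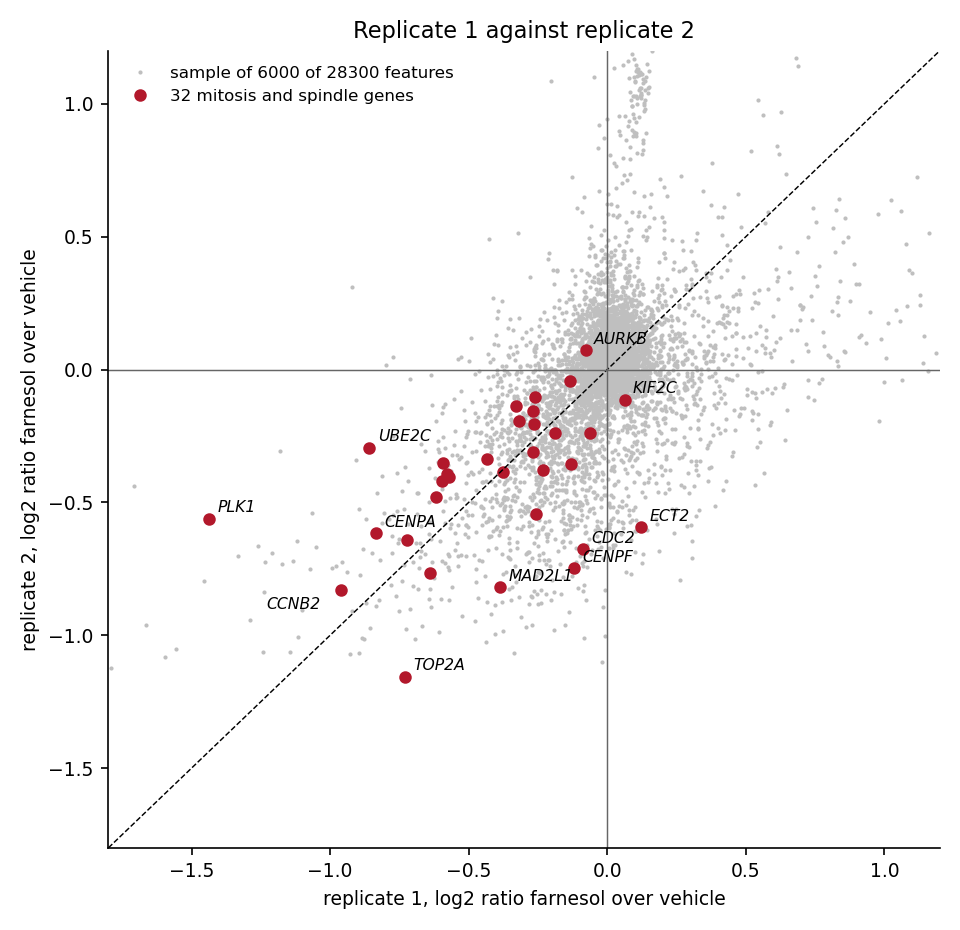
Log2 ratio of farnesol over vehicle in replicate 1 (x axis) against replicate 2 (y axis); red points are the 32 mitosis and spindle genes, grey points a sample of all features tested (those beyond the axes are not drawn), and the dashed line marks equal values. Of the red points 29 lie below 0 on both axes; PLK1 and UBE2C lie above the line, and TOP2A, MAD2L1, CENPF, CDC2 and ECT2 lie well under it.

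For 3 members the precision of a single array could be read directly, because their probe was printed at 10 spots. On every array all 10 spots of CCNA2, KIF20A and CENPE were below 0. The SD over the 10 CCNA2 spots was 0.042 to 0.097 on an array, and its array means lay between -0.59 and -0.39. KIF20A had spot SDs of 0.031 to 0.050. CENPE had array means of -0.038 and -0.084 in replicate 1 and -0.20 and -0.27 in replicate 2, with spot SDs of 0.019 to 0.081. Spots of 1 array share its RNA and give the measuring error, not the spread between experiments.

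**Figure D3:**
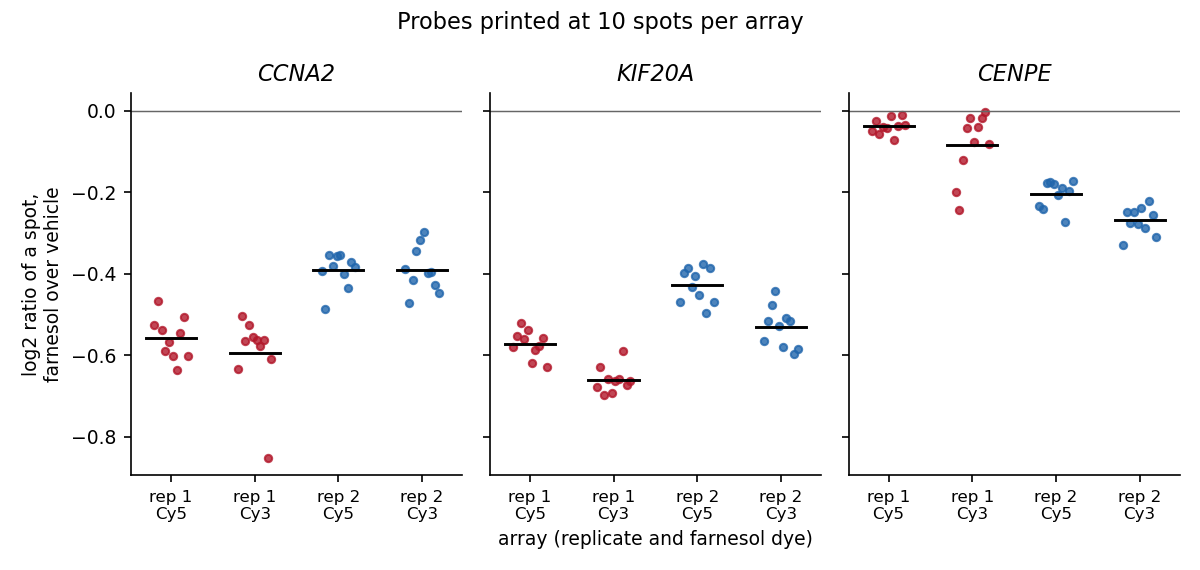
Log2 ratio of farnesol over vehicle of each of the 10 spots (points, y axis) of the CCNA2, KIF20A and CENPE probes on each of the 4 arrays (x axis, by replicate and farnesol dye); bars are means of the 10 spots. All points lie below 0, and for CENPE the replicate 2 arrays, at -0.20 and -0.27, lie below the replicate 1 means of -0.038 and -0.084.

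Of the 43 member probes, 42 were tested. In both replicates 36 of the 42 lay below 0, and on all 4 arrays 34 did, against 31.2% and 22.5% of all probes tested. In the authors' deposited table, which lists 7018 probes and follows the scanner software's ratios of replicate 1 (r 0.9999), 22 probes of 19 members appear. All 22 have a ratio of farnesol over vehicle under 1 in the authors' deposited table, where 57.8% of the rows do. No p-value listed there, from a program not given, exceeds 0.001, and no log2 ratio is smaller than 0.198 in size. Member probes near 0 in replicate 1 therefore do not appear, but CDC20, at -0.33 in replicate 1, is absent too. The lowest in the authors' deposited table are PLK1 with a ratio of 0.366, CENPA with 0.420 and CCNB2 with 0.516. The authors' deposited table covers replicate 1 only, so it adds no replicate.

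Other genes of mitosis were lower less uniformly. The members and these other genes were chosen with earlier results of these data known, so the contrast is a description only. Of 81 further genes in 5 lists, 76 were found by name and tested. Their median was -0.21, and 42 of the 76 were below 0 in both replicates, against 30.2% of all features. At an unadjusted p under 0.05, 27 (35.5%) were lower and 1 (1.32%) higher, against 10.8% and 3.71% of all features, the shares to which the counts of each list compare. Of the 76, 0 passed an adjusted p of 0.05 by limma with Benjamini-Hochberg adjustment.

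Spindle motors and cytokinesis genes came closest to the members, with 15 of 18 below 0 in both replicates, 10 lower and 0 higher at an unadjusted p under 0.05, and a median of -0.31. C10orf3, the older name of CEP55, which acts in abscission, had -0.66 ± 0.10 (SD, n = 2), and RACGAP1, the partner of KIF23 in centralspindlin, had -0.65 ± 0.27 (SD, n = 2). At the other end NUMA1, a protein of the spindle poles, had -0.015 ± 0.11 (SD, n = 2), and KIF14, a midzone kinesin, had 0.032 ± 0.12 (SD, n = 2).

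Genes of the anaphase promoting complex had a median of -0.33, with 8 of 12 below 0 in both replicates and 7 lower and 0 higher at an unadjusted p under 0.05. Of the 12, 4 were at least 1.5-fold lower in both replicates, against 1.44% of all features. The subunits CDC23 and ANAPC5 were the lowest, with -0.92 ± 0.24 and -0.82 ± 0.06 (SD, n = 2). The highest were ANAPC2, its cullin subunit, with 0.095 ± 0.13 (SD, n = 2) and ANAPC10 with 0.16 ± 0.32 (SD, n = 2), both within their replicate spread.

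Regulators of mitosis were split, with a median of -0.09, 9 of 16 below 0 in both replicates and 4 lower and 1 higher at an unadjusted p under 0.05. PBK, a mitotic kinase, had -1.51 ± 0.48 (SD, n = 2), lower than any member, and STK6, the older name of Aurora A, had -0.57 ± 0.14 (SD, n = 2). WEE1, the kinase that inhibits CDK1, had 0.13 ± 0.25 (SD, n = 2). CKS2, a small subunit that binds CDK1, lay above 0, with 1.33 in replicate 1 and 1.79 in replicate 2, a mean of 1.56 ± 0.32 (SD, n = 2; limma, Benjamini-Hochberg adjusted p = 0.191).

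The kinetochore, checkpoint and passenger list had a median of -0.07, with 6 of 17 (35.3%) below 0 in both replicates, a share near the 30.2% of all features. At an unadjusted p under 0.05, 3 (17.6%) were lower and 0 higher. Its replicate medians were 0.0066 and -0.09. CDCA1, the older name of the kinetochore protein NUF2, had -0.52, and CDCA8, the borealin subunit of the passenger complex, had -0.50. The centromere proteins CENPC1 and CENPB were above 0, with 0.48 ± 0.48 and 0.54 ± 0.65 (SD, n = 2), and differed no more from 0 than their replicates from each other.

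Condensin and cohesin had a median of -0.20, with 4 of 13 below 0 in both replicates, a share near that of all features, and 3 lower and 0 higher at an unadjusted p under 0.05. CNAP1 and BRRN1, condensin subunits, had -0.50 ± 0.09 and -0.39 ± 0.10 (SD, n = 2), and the cohesin regulator SCC-112 and the cohesin subunit STAG1 had 0.042 ± 0.033 and 0.10 ± 0.27 (SD, n = 2).

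**Figure D4:**
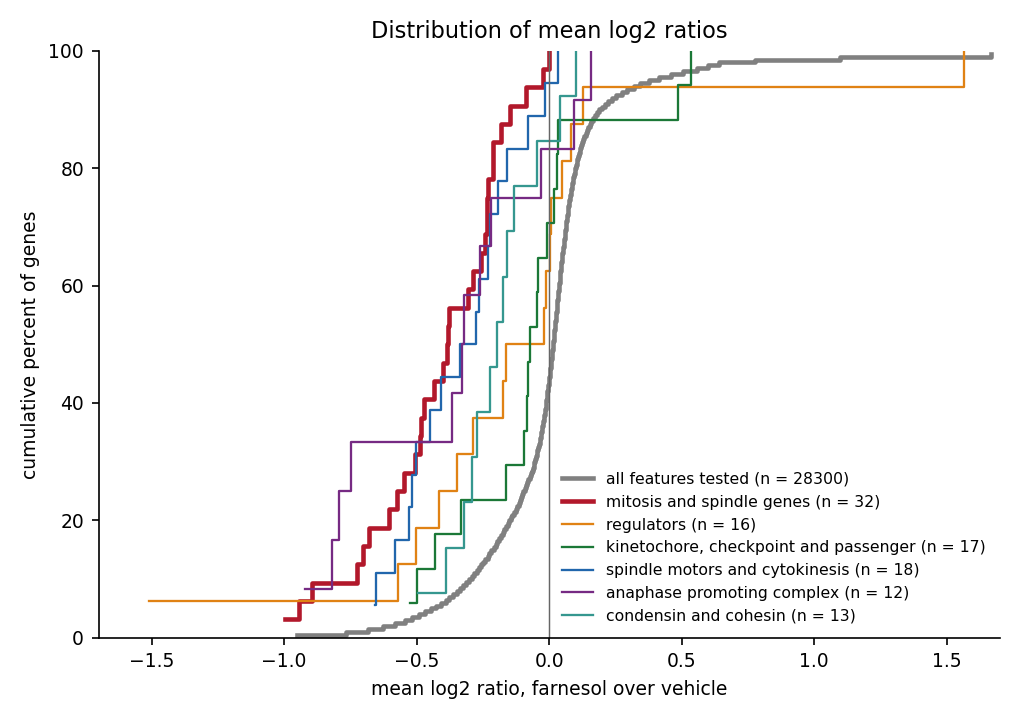
Cumulative percent of genes (y axis) with a mean log2 ratio of farnesol over vehicle (x axis) at or below a value, for the 32 mitosis and spindle genes (thick red), all 28300 features tested (thick grey, drawn between its outer percentiles) and the 5 lists of other mitosis genes (thin lines). The red curve lies left of the grey one over most of its length, with medians of -0.38 and 0.014, and the thin lines of the spindle motors (median -0.31) and the anaphase promoting complex (median -0.33) lie nearest to it.

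**Figure D5:**
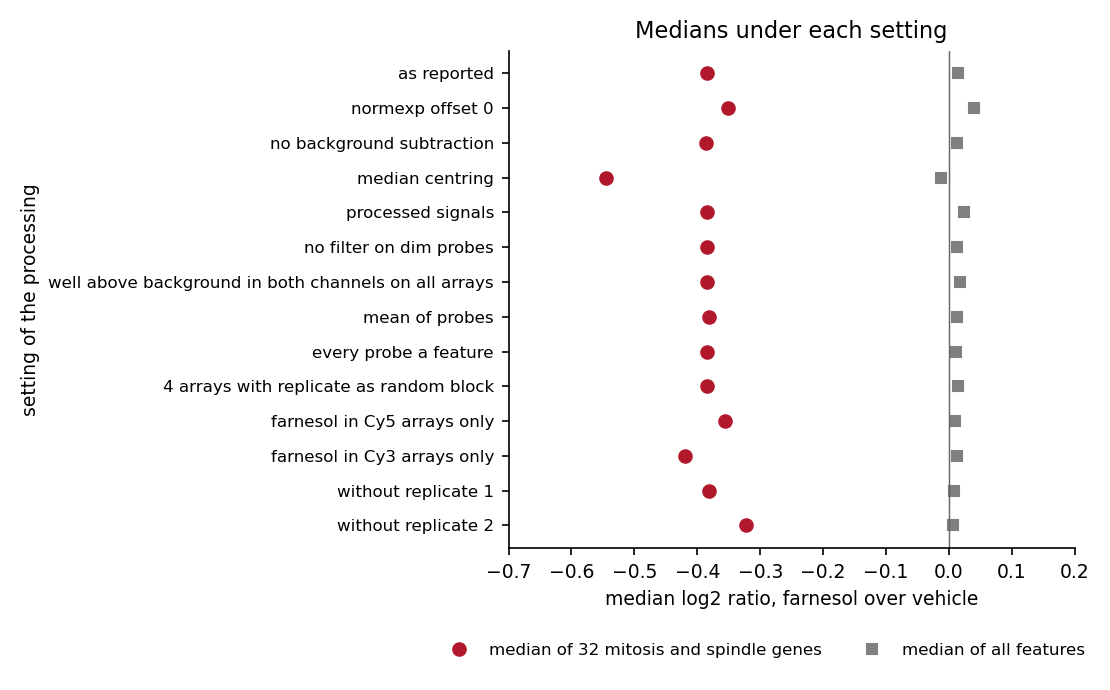
Median log2 ratio of farnesol over vehicle (x axis) of the 32 mitosis and spindle genes (red circles) and of all features (grey squares) as reported and under 13 other settings of the processing (y axis). The members' median stays below 0 throughout, between -0.54 with median centring and -0.32 without replicate 2.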

How the data were processed

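RNA of farnesol-treated and vehicle-treated H460 cells was hybridised on 4 two-colour Agilent arrays, read with Agilent Feature Extraction 8.1.1.1 per the file headers. The deposited intensity columns hold spot means, local background medians and processed signals that were background-subtracted and dye-normalized, per the file headers. A deposited log10 ratio compares processed Cy5 with processed Cy3, per the file headers; it was used only for the check of the authors' table. This deposited table, present in identical copies, holds a ratio, a p-value and a signed fold score per probe, from a program not given in the sources used here.

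The steps ran under limma 3.58.1 (R 4.3.3; data.table package version 1.17.8). Normexp with an offset of 50, applied to the spot means and background medians, corrected the background and shrinks ratios of dim probes, and ratios were loess-normalized within arrays with control and outlying spots at weight 0. Signs were turned to farnesol over vehicle by the dyes in the labels (the sample codes beginning OH and 4H were read as vehicle and farnesol, as the authors' table headers write 4h FOH for farnesol). Spots of a probe and arrays of a pair were averaged. The brightest probe stood for a gene, tested if each replicate had at least 1 array on which its channel of one and the same condition was well above background. The two-sided limma test of the mean of 2 replicates against 0 was Benjamini-Hochberg adjusted over 28300 features, with 1 residual degree of freedom and 1.81 added by moderation. The script was tested on simulated data.

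The members and all lists were chosen with earlier results of these data known. All 32 members are named; values on every array are given for the 12 with the largest means in size, for members whose replicates or tested probes differ in sign, and the 2 lowest and 2 highest of each further list are named. SPC24, SPC25, ZWILCH, CKAP5 and NCAPD3 were not matched by name. Background, normalization, probe filter, probe choice, block, dye and replicates were varied. Probe sequences, gene positions and the mouse reference were not used here.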

Additional observations from a re-analysis of the deposited data

How the results depend on the processing

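Over the 11 other settings with both replicates, 28 to 30 members were lower in both replicates, against 27.7% to 36.4% of features. At an unadjusted p under 0.05, 16 to 25 were lower, against 9.69% to 15.9% of features. With 1 replicate left out, 30 and 31 were below 0, against 47.1% and 47.7% of features. Median centring in place of loess moved the members' median from -0.38 to -0.54 (all features -0.01). It moved the members at least 1.5-fold lower from 5 to 10 (1.44% to 2.51% of features). Those at least 2-fold lower went from 0 to 1 (0.24% to 0.481% of features). The mean of a gene's probes left 3 at least 1.5-fold lower (1.07% of features). Leaving out 1 replicate gave a median of -0.38 to -0.32, and these values have no test. At least 1.5-fold lower were then 9 members without replicate 1 (4.69% of features) and 10 without replicate 2 (2.42%). At least 2-fold lower was 1 member each time (0.459% and 0.555% of features), and 1 and 2 were higher (52.3% and 52.9%). The random block, which counts technical repeats and adds no replicate, gave 17 members an adjusted p under 0.05, with 2149 features lower and 720 higher by limma. As reported the features passing were 0 and 3. Higher features passing numbered 70 with a normexp offset of 0, 58 from processed signals, 25 with median centring, 15 from Cy3 arrays and 5 from Cy5 arrays; lower ones numbered 2 with offset 0 and 2 from processed signals. AURKB turned to 0.013 with offset 0 and 0.033 on the Cy3 arrays, and KIF2C to 0.029 with offset 0. With the mean of their probes BIRC5 was at -0.46 and PLK1 at -0.65. The causes were not tested. No further pairing was possible because each ratio is already a matched pair on 1 array, so the test against 0 uses the pairing, and only 1 group of ratios exists.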

Other observations

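Condensin and cohesin had the lower value in replicate 2 throughout: of the 13 genes, 0 had it in replicate 1, where 14479 of all 28300 features did. Of the other lists, 3 of 18 spindle motors and cytokinesis genes and 5 of 17 kinetochore, checkpoint and passenger genes were lower in replicate 1. Regulators, with 8 of 16, and the anaphase promoting complex, with 6 of 12, were evenly split. Over all 76 further genes, which include condensin and cohesin, 22 were lower in replicate 1. The replicate medians of condensin and cohesin were 0.065 and -0.46. RAD21, a cohesin subunit, had 0.11 and -0.69, and STAG2, another, had 0.25 and -0.70. Of the mitosis and spindle genes, 14 of 32 had the lower value in replicate 2, a share near that of all features, among them ECT2 (0.12 and -0.59) and CDC2 (-0.09 and -0.68). RAD21 and STAG2 were chosen after their values were seen, and the difference between the replicates was not tested.

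In the anaphase promoting complex, CDC16 and CDC26 had -0.75 ± 0.08 and -0.79 ± 0.19 (SD, n = 2), while CDC27 had 0.27 in replicate 1 and -0.33 in replicate 2. These 3 subunits were also chosen after their values were seen.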
